A study of Homo sapiens with 16 samples.

Results

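RNA of 10 genes that set the pace of the G1 phase was followed in ovarian carcinoma cells with and without olaparib, a drug that inhibits PARP enzymes of DNA repair. The genes are CCND1, CCND2 and CCND3 (the D cyclins), CCNE1 and CCNE2 (the E cyclins), CCNA1, the inhibitors CDKN1B, CDKN2A and CDKN2B, and RB1. They and the gene lists below were chosen by symbol, with earlier results of these data known. All 10 genes were found among the 59428 genes of the count table, 29329 of which had at least 1 count. OVCAR3, a serous ovarian carcinoma line with intact BRCA1, was kept for 96 h with 7.5 µM olaparib or with DMSO, the solvent. UWB1.289, a serous ovarian carcinoma line with a damaging BRCA1 mutation, was kept for 96 h with 3.5 µM olaparib or with DMSO. Each of the 4 groups had 4 replicates, which gives 16 libraries. Each dose was the IC50 of that line at 96 h, each line descends from 1 tumour, and the culture media differed. The BRCA1 status, the dose and the medium therefore cannot be told apart from the line. The study asked how a PARP inhibitor alters gene expression in tumour cells with and without working BRCA1.

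D cyclins are made in response to growth signals and activate the kinases CDK4 and CDK6, which begin to phosphorylate the retinoblastoma protein encoded by RB1. Phosphorylation frees E2F transcription factors, which drive genes of DNA replication and also CCNE1 and CCNE2, whose proteins activate CDK2 and complete the step into S phase. The p16 and p15 proteins of CDKN2A and CDKN2B block CDK4 and CDK6, whereas p27, from CDKN1B, blocks mainly CDK2. CCNE1 is often gained in ovarian carcinoma, and OVCAR3 is known to carry extra copies of its region. CCNA1 encodes an A cyclin that is mainly known from germ cells and some leukaemias.

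Libraries were primed at the poly(A) tail (QuantSeq), so 1 transcript gives about 1 tag whatever its length. Levels are CPM (counts scaled to the effective library size) after TMM normalization over the 16 libraries and are given as tags, not per base of length. Total counts ran from 5599571 to 7730228 per library, where 1 count is worth 0.132 to 0.178 CPM. Tests were edgeR quasi-likelihood F tests with Benjamini-Hochberg adjustment over all genes tested. A gene was taken to rise or fall at an adjusted p below 0.1, and was called when it also changed more than 2-fold at an average count above 10. P-values measure the spread between these libraries, since the labels number the replicates but do not say how the cultures were kept apart. In bulk RNA, a change in the share of cells that express a gene and a change in RNA per cell cannot be told apart. Of 10 markers of serous carcinoma and epithelium, all had more than 3 counts in some library of each OVCAR3 group. In each UWB1.289 group 9 did, and WT1 did not. Under DMSO 4 of the 10 were higher in UWB1.289 and 5 lower. Of 3 leukocyte markers, 1 passed this count in each OVCAR3 group and 2 in each UWB1.289 group. Of 2 endothelial markers, 0 passed it in OVCAR3 with DMSO, 1 with olaparib and 2 in each UWB1.289 group. Of 3 fibroblast markers, 1 passed it in every group. In UWB1.289 leukocyte markers summed to at most 18.1 CPM and endothelial ones to 9.69 CPM, against at least 5906 CPM for the serous list. Replicate 4 of OVCAR3 with olaparib stood apart. Its mean correlation with the other replicates of its group was 0.978 over 9540 genes, against 0.982 to 0.990 for the other 15 libraries. Results in OVCAR3 with olaparib are therefore also given without it for most of the 10 genes and for the counts of E2F targets. Other OVCAR3 values with olaparib, those of CCNE2 among them, include it.

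CCNE1, CDKN2B and CCNA1 are 3 of the 5 genes that rose in OVCAR3, and their promoters are shown so that the response can be read beside the sequence next to each start. The windows are the 250 bases before the RefSeq start (GRCh38.p14), 5′ to 3′ on the strand of the gene. CCNA1 is printed as the 126 bases of its window that lie outside the first exons of longer GENCODE transcripts. Capitals mark GC boxes (GGGCGG on either strand), the only one of 7 motifs searched that matched in these windows. The others were E2F sites (TTTCCCGC, TTTCGCGC, TTTGCCGC or TTTGGCGC), the E-box CACGTG, the AP-1 site TGANTCA, the TATA box TATAAA, the CCAAT box and the IRF site, read on both strands.
CCNE1, chr19:29811741-29811990, plus strand: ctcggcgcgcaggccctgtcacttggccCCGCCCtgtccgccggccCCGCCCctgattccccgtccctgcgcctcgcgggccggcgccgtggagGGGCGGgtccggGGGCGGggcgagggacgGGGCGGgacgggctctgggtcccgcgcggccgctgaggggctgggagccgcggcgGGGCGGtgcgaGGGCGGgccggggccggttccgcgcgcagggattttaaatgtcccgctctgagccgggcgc
CDKN2B, chr9:22009306-22009555, minus strand: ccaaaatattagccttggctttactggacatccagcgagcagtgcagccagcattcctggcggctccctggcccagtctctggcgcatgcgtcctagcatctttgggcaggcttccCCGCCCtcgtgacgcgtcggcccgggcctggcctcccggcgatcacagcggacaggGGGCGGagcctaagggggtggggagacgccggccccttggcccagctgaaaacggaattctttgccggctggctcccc
CCNA1, chr13:36431777-36431902, plus strand: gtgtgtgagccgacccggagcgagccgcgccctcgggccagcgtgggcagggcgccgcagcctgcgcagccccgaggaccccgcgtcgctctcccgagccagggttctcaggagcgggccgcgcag
The CCNE1 window held 7 GC boxes and was 81.2% G and C. The CDKN2B window held 2 GC boxes, at positions -134 and -78 from the start, and was 66.4% G and C. The CCNA1 window was 72.8% G and C and matched none of the 7 motifs. A GC box was present in 42.6% of the 35116 promoter windows of the same length, an E2F site in 2.79%, the E-box in 6.34%, the AP-1 site in 6.57%, TATAAA in 10.7%, CCAAT in 32.0% and the IRF site in 3.02%. Windows of the genes shown thus ranged from 7 GC boxes to none of the motifs. CCND3, which also rose, had windows with 5, 2 and 0 GC boxes, and the last 2 of these held 1 CCAAT box each. Among genes that did not rise, CDKN1B had 1 GC box and 2 CCAAT boxes. The CDKN2A windows had 0 and 1 GC box, and RB1 had 1 AP-1 site. RefSeq entries were found for 7 of the 10 genes, the others being CCND1, CCND2 and CCNE2.

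In OVCAR3 olaparib raised cyclins from each of the D, E and A groups together with the inhibitor CDKN2B. Of the 9 genes that passed the filter on low counts, 5 rose (CCND1, CCND3, CCNE1, CCNA1 and CDKN2B), 1 fell (CDKN1B) and 3 did not pass (CCNE2, CDKN2A and RB1). CCND2 was not tested there. Over all 13031 genes tested in that line, 15.5% rose and 16% fell, and 5.23% were called. CCND1, CCNA1 and CDKN2B were called, and the median log2 fold change of the 9 genes was 0.93, against -0.01 over all genes.

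In UWB1.289 fewer of the 10 genes rose, and the D cyclins moved in both directions. CCND3, CCNA1 and CDKN2B rose, CCND1 and CCND2 fell, and CCNE1, CCNE2, CDKN1B, CDKN2A and RB1 did not pass. Among all 12748 genes tested in that line, 7.77% rose, 6.1% fell and 2.21% were called. CCNA1 was the 1 gene called, and the median log2 fold change of the 10 genes was -0.05, against -0.00 over all genes.

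**Figure D1:**
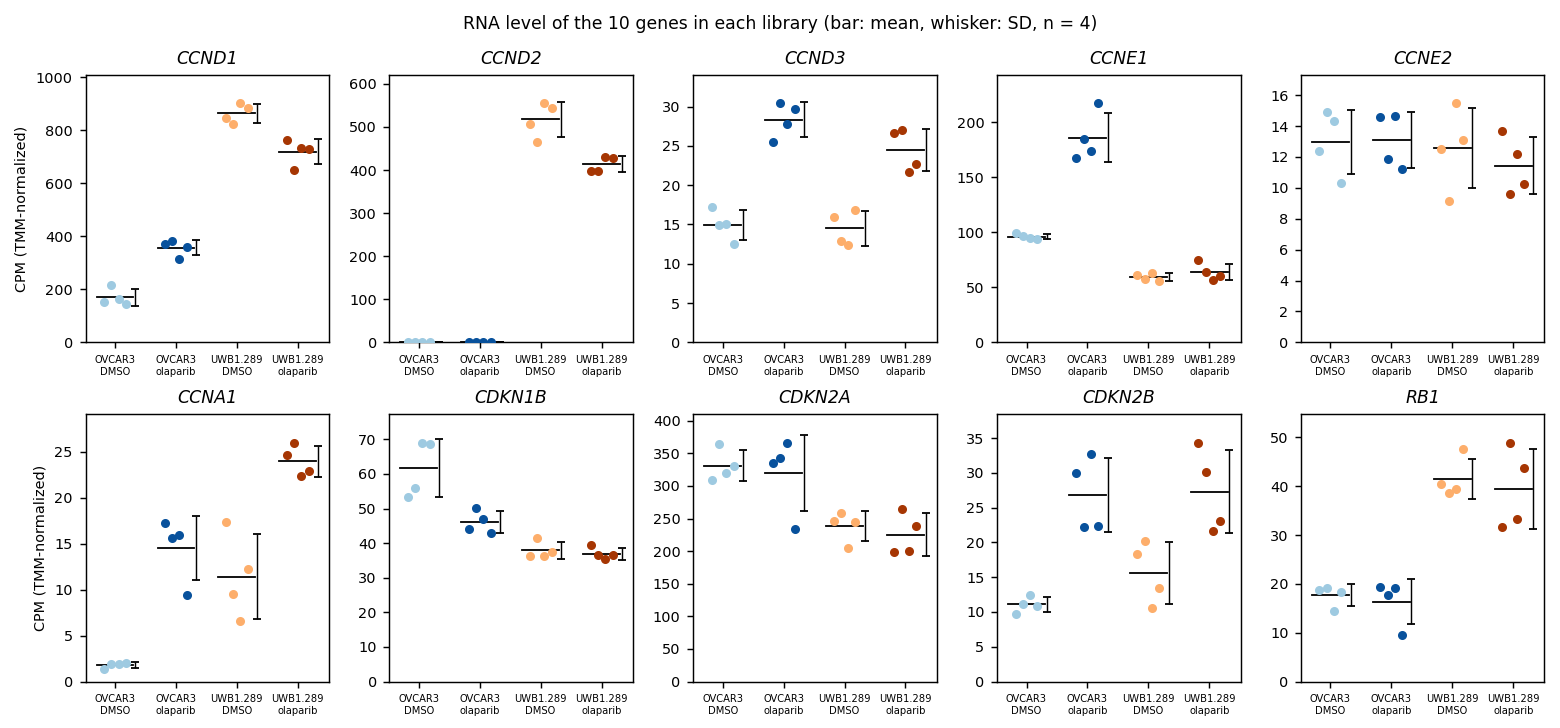
RNA level of each gene (linear axis, CPM after TMM normalization) in the 16 libraries. Points are libraries, bars are means and whiskers are SD (n = 4). CCND1, CCND3, CCNE1, CCNA1 and CDKN2B lie higher with olaparib than with DMSO in all OVCAR3 libraries, and CCND2 is at 0 or 1 count there.

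CCND1 (cyclin D1, chr11:69641156-69654474, plus strand) responded in opposite directions in the lines. In OVCAR3 it stood at 150.5, 217, 165 and 145 CPM in DMSO replicates 1 to 4 and at 372, 383, 316 and 360.2 CPM with olaparib. In UWB1.289 it stood at 848, 824, 903 and 883 CPM in DMSO and at 763, 651, 732 and 731 CPM with olaparib. The treated and control libraries did not overlap in either line, higher with the drug in OVCAR3 and lower in UWB1.289. OVCAR3 gained 1.08 on a log2 scale (SE 0.104, edgeR adjusted p = 2.12e-07) and the change in UWB1.289 was -0.26 (SE 0.0731, edgeR adjusted p = 0.0238). Without replicate 4 of the treated OVCAR3 group the gain was 1.08. Even after olaparib, the highest OVCAR3 library stayed below the lowest UWB1.289 library. LTO1 lies in part on the opposite strand of CCND1 and had 2187 counts over the 16 libraries, against 4302 to 22907 counts of CCND1 per group.

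CCND2 (cyclin D2, chr12:4269771-4305353, plus strand) separated the lines. All 4 OVCAR3 libraries with DMSO had 0 counts, and the treated ones had 1 count in replicate 3 and 0 in the rest. UWB1.289 had 506, 466, 555 and 545 CPM with DMSO, or 2792 to 4126 counts per library. Set against a floor of 3 counts per OVCAR3 library, the level in UWB1.289 was at least 1099-fold higher under DMSO and at least 932-fold higher under olaparib. In UWB1.289 olaparib lowered it to 397, 397, 431 and 428 CPM, all below the control libraries. This change was -0.32 in log2 units (SE 0.0768, edgeR adjusted p = 0.00825), beside -0.26 for CCND1.

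CCND3 (cyclin D3, chr6:41934934-42050357, minus strand) was the D cyclin that rose in both lines. OVCAR3 held 17.2, 14.9, 15.1 and 12.5 CPM with DMSO and 25.5, 30.4, 27.8 and 29.7 CPM with olaparib. UWB1.289 held 15.98, 12.8, 12.4 and 16.9 CPM with DMSO and 26.6, 27.05, 21.7 and 22.7 CPM with olaparib. Treated and control libraries were apart in both lines, and the starting levels of the lines overlapped. CCND3 gained 0.93 in log2 units (SE 0.131, edgeR adjusted p = 2.31e-05) in OVCAR3 and 0.75 (0.140, 0.00109) in UWB1.289. Leaving out replicate 4 of the treated OVCAR3 group gave 0.91.

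The share of each gene among D cyclin tags was compared between treatments. CCND1 supplied 91.8% ± 1.58 (SD, n = 4) of D cyclin counts in OVCAR3 with DMSO and 92.6% ± 0.717 with olaparib. In UWB1.289 it supplied 61.9% ± 0.950 with DMSO and 62.1% ± 1.54 with olaparib, and CCND2 supplied 37.0% ± 0.934 and 35.7% ± 1.53. CCND3 went from 1.04% ± 0.156 to 2.13% ± 0.314 in UWB1.289 and stood at 8.24% ± 1.58 and 7.37% ± 0.703 in OVCAR3.

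**Figure D2:**
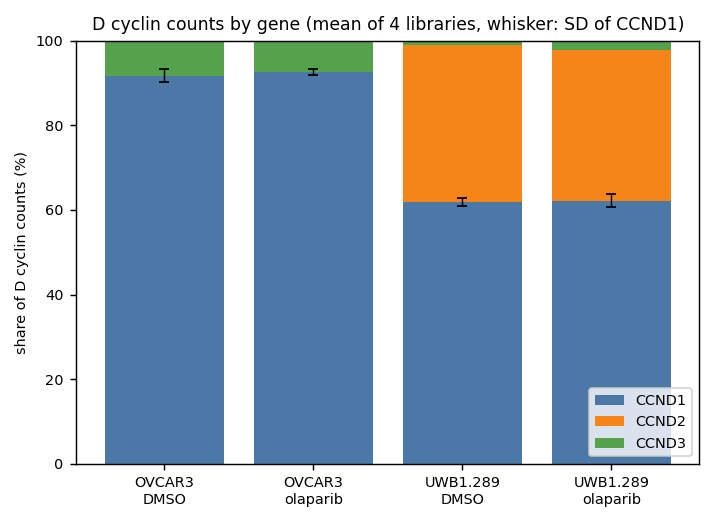
Share of D cyclin counts (percent, linear axis from 0) that came from each gene in the 4 groups, as the mean of 4 libraries with the SD of the CCND1 share. CCND2 fills 37.0% in UWB1.289 with DMSO and is missing from OVCAR3, where CCND1 takes 91.8%.

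CCNE1 (cyclin E1, chr19:29811991-29824312, plus strand) rose in OVCAR3. The DMSO libraries lay close together at 98.9, 96.3, 95.1 and 94.2 CPM, and the treated ones at 168, 185, 174 and 217 CPM. All treated libraries were far above all controls, with replicate 4 the highest. CCNE1 gained 0.96 in log2 units (SE 0.0853, edgeR adjusted p = 7.54e-08), and 0.87 without replicate 4. In UWB1.289 the 61.3, 57.9, 62.6 and 55.3 CPM of DMSO overlapped the 74.5, 63.5, 57.0 and 60.7 CPM of olaparib. There the log2 fold change was 0.11 (SE 0.0992, edgeR adjusted p = 0.550), with an approximate 95% interval of -0.08 to 0.30. CCNE1 supplied 88.1% ± 1.66 of E cyclin counts in OVCAR3 with DMSO and 93.3% ± 1.47 with olaparib, and 82.6% ± 2.76 and 84.8% ± 1.90 in UWB1.289.

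CCNE2 (cyclin E2, chr8:94879770-94896678, minus strand), the partner gene of CCNE1, was low in every group. It ranged from 10.3 to 14.9 CPM and from 11.2 to 14.7 CPM in OVCAR3 with DMSO and olaparib, and from 9.18 to 15.5 CPM and 9.61 to 13.7 CPM in UWB1.289. All 4 ranges overlapped. The log2 fold change was 0.02 in OVCAR3 (95% interval -0.30 to 0.34, edgeR adjusted p = 0.952), an interval that lies below the 0.96 of CCNE1. In UWB1.289 it was -0.13 (-0.48 to 0.22, edgeR adjusted p = 0.710). INTS8 and NDUFAF6 overlap CCNE2 on the opposite strand with 1557 and 1962 counts in all, and how strand was used in counting is not given in the sources used here.

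CCNA1 (cyclin A1, chr13:36431520-36442870, plus strand) rose most among the 10 genes in both lines. In OVCAR3 it was near the limit of detection with DMSO, at 1.32, 1.93, 1.88 and 2.01 CPM (8 to 14 counts). With olaparib it reached 17.3, 15.6, 15.9 and 9.46 CPM, the last being replicate 4. The lowest treated library was still above the highest control. On a log2 scale CCNA1 gained 3.01 (SE 0.250, edgeR adjusted p = 2.97e-08), or 8.05-fold, rank 31 by size among 13031 genes, and 3.17 without replicate 4. In UWB1.289 the DMSO libraries held 17.3, 9.51, 6.54 and 12.3 CPM and the treated ones 24.6, 26.0, 22.3 and 22.8 CPM. The controls spread widely but stayed below all treated libraries, and the gain was 1.06 (SE 0.193, edgeR adjusted p = 0.000792). Leaving out 1 library at a time moved that value between 0.87 and 1.33, and it fell short of 2-fold without DMSO replicate 2 (0.98) or 3 (0.87), so that CCNA1 was then no longer called.

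CDKN2B (p15, chr9:22002903-22009305, minus strand), an inhibitor of CDK4 and CDK6, rose in both lines. OVCAR3 went from 9.75, 11.2, 12.5 and 10.9 CPM to 30.0, 22.2, 32.7 and 22.3 CPM. UWB1.289 went from 18.4, 20.2, 10.5 and 13.5 CPM to 34.4, 30.1, 21.7 and 23.1 CPM. Treated and control libraries were apart in each line, narrowly so in UWB1.289. The log2 fold changes were 1.28 (SE 0.156, edgeR adjusted p = 5.17e-06) and 0.81 (0.180, 0.00514), and 1.35 in OVCAR3 without replicate 4.

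CDKN2A (p16 and p14ARF, chr9:21967752-21995301, minus strand) lies beside CDKN2B, but unlike it did not pass the test in either line. OVCAR3 held 309, 365, 319 and 331 CPM with DMSO and 334, 343, 367 and 235 CPM with olaparib. UWB1.289 held 246, 259, 205 and 244 CPM with DMSO and 198, 265, 199.8 and 239 CPM with olaparib. Groups overlapped in both lines, and the low value in OVCAR3 was replicate 4. The log2 fold change was -0.05 (95% interval -0.25 to 0.16, edgeR adjusted p = 0.793) in OVCAR3, 0.08 without replicate 4, and -0.08 (-0.27 to 0.11, 0.679) in UWB1.289. The p16 and p14ARF transcripts share the locus and are not separated in counts per gene. CDKN2B-AS1 overlaps both inhibitors on the opposite strand and had 302 counts over all libraries.

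CDKN1B (p27, chr12:12685498-12722369, plus strand), which holds back CDK2, was the 1 gene of the 10 that fell in OVCAR3. It went from 53.4, 55.9, 69.1 and 68.7 CPM to 44.1, 50.1, 46.8 and 42.9 CPM, with no overlap. In log2 units the change was -0.42 (SE 0.104, edgeR adjusted p = 0.00515), and -0.39 without replicate 4. UWB1.289 began lower, at 36.2, 41.5, 36.4 and 37.5 CPM, and held 39.5, 36.5, 35.3 and 36.5 CPM with olaparib. Those libraries overlapped, and the log2 fold change was -0.03 (95% interval -0.24 to 0.17, edgeR adjusted p = 0.885).

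RB1 (chr13:48303744-48599436, plus strand), the substrate on which the cyclins and inhibitors converge, did not pass in either line. OVCAR3 held 18.8, 19.3, 14.5 and 18.4 CPM with DMSO and 19.3, 17.6, 19.1 and 9.46 CPM with olaparib. The lowest value was again replicate 4. UWB1.289 held 40.4, 38.5, 39.4 and 47.5 CPM with DMSO and 31.7, 48.9, 33.4 and 43.7 CPM with olaparib. The groups overlapped in each line, and every UWB1.289 library was above every OVCAR3 library. The log2 fold change with olaparib was -0.11 (95% interval -0.48 to 0.25, edgeR adjusted p = 0.706) in OVCAR3, 0.08 without replicate 4, and -0.07 (-0.33 to 0.18, 0.790) in UWB1.289.

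**Figure D3:**
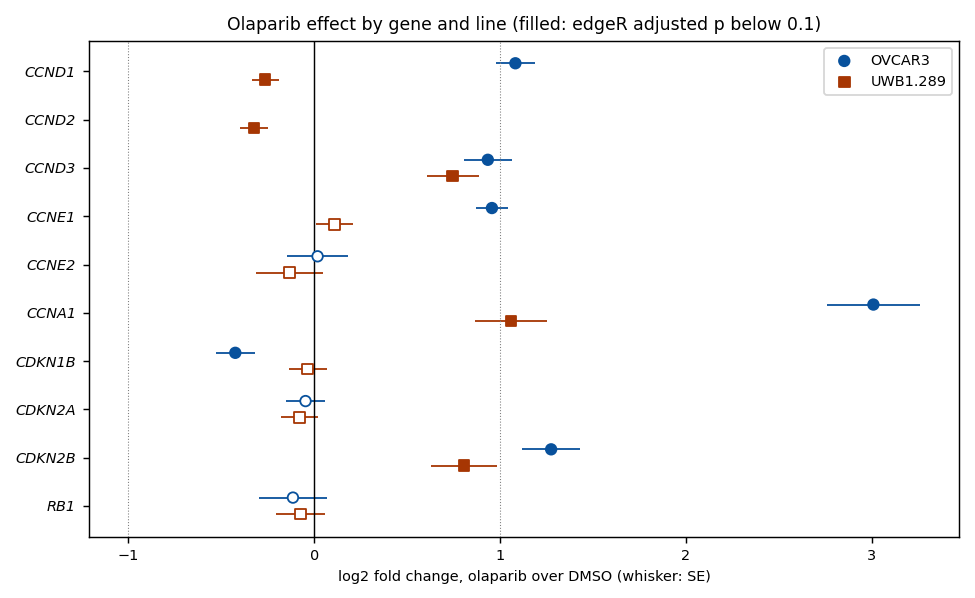
Log2 fold change of each gene with olaparib over DMSO (x axis, whisker: SE) in OVCAR3 (circles) and UWB1.289 (squares), with filled symbols at an edgeR adjusted p below 0.1. CCNA1 lies farthest to the right in both lines (3.01 and 1.06), CCND1 is at 1.08 in OVCAR3 and -0.26 in UWB1.289, and CCND2 has no OVCAR3 point.

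Whether the lines differed in their response was tested as an interaction over all 16 libraries, which shares its libraries with the comparisons above. CCND2 has no usable fold in OVCAR3, which left 9 genes. The response was lower in UWB1.289 for 3 of them, higher for 0, and 6 did not pass. By DESeq2 3 were lower and 1 (CDKN1B) higher, and by edgeR CDKN1B was the 1 gene higher at an unadjusted p below 0.05. Among all 14243 genes tested, 5.83% had a lower response in UWB1.289, 5.09% a higher one, and 3.66% were called. The responses differed by -1.34 log2 units (SE 0.132, edgeR adjusted p = 2.61e-08) for CCND1, -0.84 (0.130, 5.39e-05) for CCNE1 and -1.95 (0.353, 0.000449) for CCNA1. CCND1 and CCNA1 were called. For CCNA1 this is a difference in fold, from an OVCAR3 control level of 8 to 14 counts. Its mean level went from 1.78 to 14.6 CPM in OVCAR3 and from 11.4 to 23.9 CPM in UWB1.289. The treated level was thus higher in UWB1.289. For CCND3 and CDKN2B, which rose in both lines, the differences were -0.19 (95% interval -0.56 to 0.19, edgeR adjusted p = 0.647) and -0.47 (-0.97 to 0.04, 0.310). For CDKN1B it was 0.39 (0.11 to 0.67, edgeR adjusted p = 0.101), on the edge of the threshold, and 3 alternatives other than leaving out a library put it just past. Without replicate 4 of treated OVCAR3 the CCND1, CCNE1 and CCNA1 differences were -1.34, -0.76 and -2.11.

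Under DMSO the lines already differed in most of the 10 genes. Of the 9 with a fold, CCND1, CCNA1, CDKN2B and RB1 were higher in UWB1.289, CCNE1, CDKN1B and CDKN2A were lower, and CCND3 and CCNE2 did not pass. The lines are far apart throughout: of 13366 genes tested, 39.8% were higher in UWB1.289, 40.1% lower and 38.4% called. CCND1 was higher by 2.35 log2 units (SE 0.0896, edgeR adjusted p = 3.26e-20), CCNA1 by 2.66 (0.293, 1.88e-09), RB1 by 1.23 (0.121, 1.90e-10) and CDKN2B by 0.49 (0.181, 0.0160). The first 3 were called. The log2 difference was -0.70 (SE 0.0811, edgeR adjusted p = 5.35e-09) for CCNE1, -0.71 (0.102, 2.73e-07) for CDKN1B and -0.47 (0.0756, 1.68e-06) for CDKN2A. It was -0.03 (95% interval -0.33 to 0.28) for CCND3 and -0.04 (-0.38 to 0.30) for CCNE2. In order of mean level under DMSO, OVCAR3 ran CDKN2A, CCND1, CCNE1, CDKN1B, RB1, CCND3, CCNE2, CDKN2B, CCNA1 and CCND2. In that order RB1, CCND3 and CCNE2 each overlapped with the next gene among libraries, and the other neighbours did not. UWB1.289 ran CCND1, CCND2, CDKN2A, CCNE1, RB1, CDKN1B, CDKN2B, CCND3, CCNE2 and CCNA1, and from RB1 to CCNA1 neighbours overlapped except CDKN1B with CDKN2B.

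The genes beside CCNE1 were read for the same contrast. Within 1 Mb, 5 other protein-coding genes were tested. Beside 40.1% of all genes, 4 of the 5 were lower in UWB1.289 than in OVCAR3 under DMSO. Their log2 differences were -2.33 for POP4, -1.17 for PLEKHF1, -3.11 for C19orf12 and -2.00 for URI1, each larger in size than the -0.70 of CCNE1 itself. URI1 stood at 918 ± 65.3 CPM (SD, n = 4) in OVCAR3 and 230.3 ± 17.5 CPM in UWB1.289. UQCRFS1, the farthest of the 5 at -598.8 kb from CCNE1, went the other way at 0.76, and all 5 had an edgeR adjusted p below the threshold. The response to olaparib in OVCAR3 was then set beside that of CCNE1. POP4 and URI1 had log2 fold changes of 0.03 and -0.03 (edgeR adjusted p = 0.812 and 0.803), PLEKHF1 of -0.22 (0.102), and C19orf12 and UQCRFS1 fell by 0.26 and 0.30 on the log2 scale (0.0108 and 0.0286). By edgeR or DESeq2, or at an unadjusted p below 0.05, 0 of the 5 neighbours rose. By edgeR 15.5% of all genes rose in OVCAR3, and CCNE1 rose by 0.96. DNA copy number was not measured here, and its part in the levels was not tested.

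**Figure D4:**
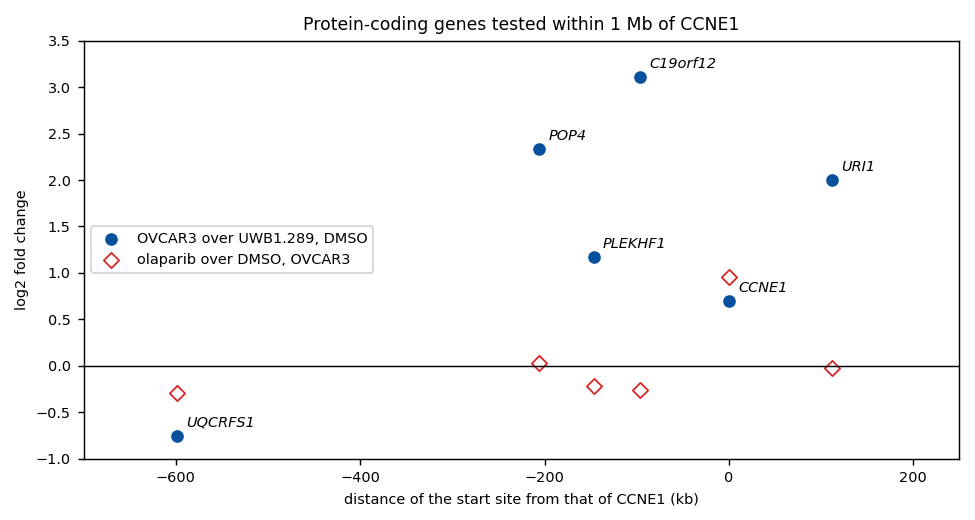
Log2 fold change (y axis) of CCNE1 and the 5 other protein-coding genes tested within 1 Mb, by distance of the start site from that of CCNE1 (x axis, kb). Filled circles are OVCAR3 over UWB1.289 under DMSO, and open diamonds are olaparib over DMSO in OVCAR3; CCNE1 has a modest line difference and is the 1 gene raised by olaparib.

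Neighbours of the other genes were counted in the same way, beside 39.8% of all genes higher in UWB1.289 and 40.1% lower. All 7 protein-coding genes tested within 1 Mb of RB1 were higher in UWB1.289 (median log2 difference 1.04), as were 6 of 7 around CCNA1 (1.32), where SMAD9 was lower at -0.63. Around CCND2, 5 of 8 were higher and 0 lower (0.87), with CRACR2A and PARP11 at 7.29 and 3.81. Around CDKN2A, 4 of 5 were lower in UWB1.289 (-1.18), and CDKN2B was the exception. Around CCND1, 8 of 12 were higher and 2 lower (0.48), these being TPCN2 and LTO1. Directions were mixed around the rest, with 5 higher and 5 lower of 11 around CDKN1B, 9 and 5 of 24 around CCND3, and 2 and 3 of 9 around CCNE2. The 5 tested around CDKN2B, CDKN2A among them, were lower. MYEOV, at -347.0 kb from CCND1, was higher by 4.54 in UWB1.289 and rose with olaparib by 3.07 in OVCAR3 and 0.70 in UWB1.289 (edgeR adjusted p = 3.89e-06 and 0.000502). The genes named in this paragraph were picked after their values were seen.

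The kinases that the cyclins activate were read next. Of 7 genes (CDK2, CDK4, CDK6, the CDK-activating kinase CDK7 with CCNH and MNAT1, and the phosphatase CDC25A), 2 rose and 1 fell in OVCAR3, and 1 rose and 1 fell in UWB1.289, beside 15.5% and 16% of all genes in OVCAR3 and 7.77% and 6.1% in UWB1.289. CDK2 rose in OVCAR3 by 0.34 on the log2 scale (edgeR adjusted p = 0.00422) and was 0.02 (0.924) in UWB1.289. CDK6 fell by 0.23 in OVCAR3 (edgeR adjusted p = 0.0432) and rose by 0.44 in UWB1.289 (0.00646), a difference of 0.67 (0.00158). CDK4 was 0.03 in OVCAR3 (edgeR adjusted p = 0.833) and -0.23 in UWB1.289 (0.0803). CDC25A, which removes the block on CDK2, rose by 0.68 in OVCAR3 (edgeR adjusted p = 0.000388) and was 0.18 (0.319) in UWB1.289.

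Among 4 other CDK inhibitors 1 rose and 1 fell in each line. Over all genes 15.5% rose and 16% fell in OVCAR3, and 7.77% and 6.1% in UWB1.289. CDKN1A (p21), a p53 target, rose by 1.44 in OVCAR3 (SE 0.161, edgeR adjusted p = 1.60e-06) and 1.07 in UWB1.289 (0.263, 0.0114), and was called in both. CDKN1C (p57) fell by 0.54 in OVCAR3 (edgeR adjusted p = 0.000565) and was 0.18 (0.730) in UWB1.289. CDKN2C (p18) fell by 0.97 in UWB1.289 (edgeR adjusted p = 0.00698) and was -0.47 (0.316) in OVCAR3. Between the lines under DMSO, CDKN1C was lower in UWB1.289, at -3.40, and CDKN2C higher, at 1.77, in log2 difference.

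E2F factors and the genes they drive were counted next. Over all genes, the shares to set beside the counts of both lists were 15.5% rising and 16% falling in OVCAR3. In UWB1.289 they were 7.77% and 6.1%. Of 15 pocket protein, E2F and partner genes tested, 3 rose and 0 fell in OVCAR3, while 0 rose and 4 fell in UWB1.289. DESeq2 gave the same 4 counts, and at an unadjusted p below 0.05 1 gene was higher in UWB1.289 and 0 were lower in OVCAR3. In the interaction 3 of the 15 (E2F1, E2F2 and LIN52) had a lower response in UWB1.289 and 12 did not pass. E2F2 rose by 0.53 in OVCAR3 (edgeR adjusted p = 0.0164) and fell by 1.10 in UWB1.289 (0.0260), a difference of -1.63 (0.00186). E2F1 was 0.24 in OVCAR3 (edgeR adjusted p = 0.149) and fell by 0.42 in UWB1.289 (0.0560), a difference of -0.66 (0.0269). Of 27 genes known as E2F targets at G1/S, 12 rose and 0 fell in OVCAR3 (median 0.20). In UWB1.289 0 rose and 10 fell (median -0.22). In the interaction 14 had a lower response in UWB1.289 and 0 a higher one (median -0.48), beside 5.83% and 5.09% of all genes. DESeq2 gave the same 6 counts for these targets, and the 3 counts of 0 were also 0 at an unadjusted p below 0.05. MYBL2 and the licensing factor CDT1 led in OVCAR3 at 0.75 and 0.71, and GINS2, POLA1 and TYMS in UWB1.289 at -0.50, -0.44 and -0.43. CDT1 had the largest difference in the list, -1.03 (edgeR adjusted p = 1.44e-05). Without replicate 4 of treated OVCAR3 the counts there were 14 rising and 1 falling (UNG, -0.25), and with the replicate number as a block 13 fell in UWB1.289.

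Most later cyclins and proliferation markers rose in OVCAR3, where 15.5% of all genes rose and 16% fell. In UWB1.289 those shares were 7.77% and 6.1%. Of 7, 5 rose in OVCAR3, led by the mitotic kinase CDK1 at 0.51 (edgeR adjusted p = 3.00e-05) and CCNB2 at 0.41 (0.000961), and 0 fell. In UWB1.289 0 of the 7 passed by edgeR or DESeq2, and 0 had an unadjusted p below 0.05. The interaction passed for CDK1 and CCNB2, at -0.48 and -0.47. Of 10 parts of ubiquitin ligases that act on G1 cyclins or p27, 1 rose and 1 fell in OVCAR3, and 0 rose and 2 fell in UWB1.289. The same shares of all genes stand beside these counts. FBXO4, whose product has been linked to cyclin D1 turnover, fell in both lines, by 0.79 and 0.56 on the log2 scale (edgeR adjusted p = 0.0163 and 0.0192). CKS1B, a helper of p27 destruction, rose by 0.23 in OVCAR3 (edgeR adjusted p = 0.0216).

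**Figure D5:**
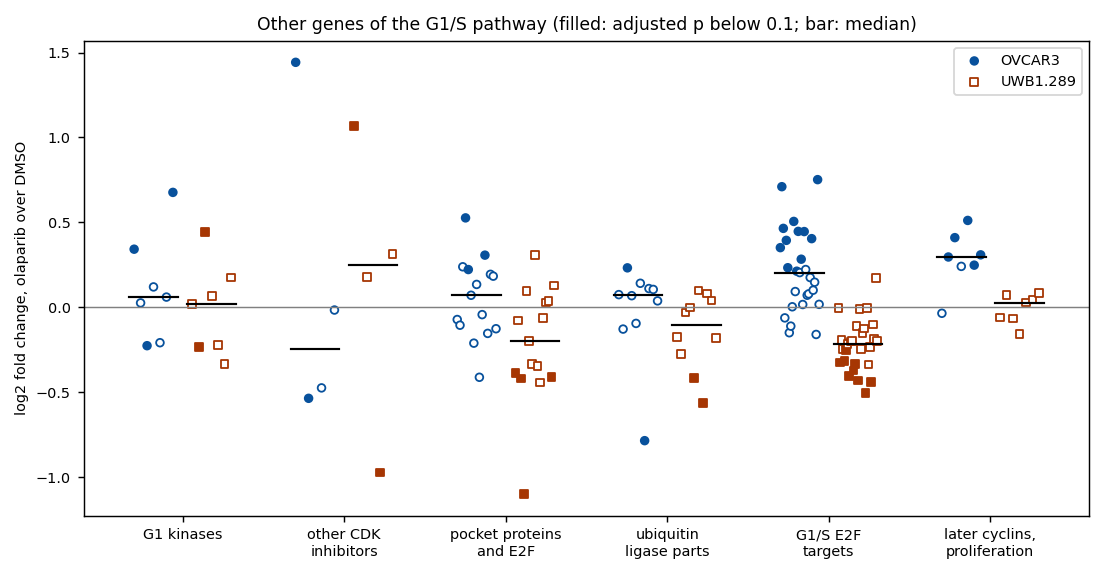
Log2 fold change with olaparib over DMSO (y axis) of other G1/S genes by list, in OVCAR3 (circles) and UWB1.289 (squares). Filled symbols have an edgeR adjusted p below 0.1 and bars are list medians. E2F target medians lie at 0.20 in OVCAR3 and -0.22 in UWB1.289.

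Genes with the most similar profile were sought for each of the 7 genes that rose or fell, by Pearson correlation of log2 CPM over the 16 libraries after the mean of each line was taken out. These correlations describe the libraries, which share treatment and depth. CCNA1 was closest to CXCL8 (r = 0.971) and CXCL1 (0.965), which encode neutrophil chemokines, and to ACER3 (0.965). CDKN2B was closest to NTN1 (0.939), the complement gene C3 (0.939) and MAFF (0.934). CCND1 was closest to SOX4 (0.968), EPB41L2 (0.964) and SEPTIN11 (0.950), and CCNE1 to HMOX2 (0.967), CKB (0.966) and PHLDA2 (0.964). For CCND3 they were B4GALT1 (0.954), ZC3H12A (0.950) and SDC4 (0.949). CDKN1B had lower values, with SURF1 (0.890), SNHG25 (0.882) and THRAP3 (0.880). CCND2 was closest to WSB2 (0.850), B3GNT3 (0.805) and GOLIM4 (0.781). In OVCAR3 its profile rests on the 1 count of olaparib replicate 3, at -1.15 log2 CPM against -1.70 in the other libraries of that line. The CCND2 correlations therefore depend in part on 1 count at the floor.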

How the data were processed

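The deposited table holds raw counts per gene in 16 RNA libraries from 2 ovarian carcinoma lines. The authors used the QuantSeq 3′ kit and handled the reads as single-end. After BBDuk trimming they ran STAR 2.7.9a on hg38 and took counts from featureCounts 2.0.0. Settings for strand and for reads with several matches are not given in the sources used here. All columns were matched to samples by their labels. No libraries were identical, and chi-square per gene was 2.89 for the most similar replicates.

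The test was the quasi-likelihood F test of edgeR 4.0.16 under R 4.3.3, after filterByExpr and TMM, with Benjamini-Hochberg adjustment over all genes tested. Olaparib was compared with DMSO within each line, the lines under DMSO, and the responses as an interaction over 16 libraries. The SE was derived from the log2 fold change and F, and 95% intervals use a normal approximation. Where no library of a group had more than 3 counts for a gene, a bound was given in place of a fold. The tests were tested on simulated data. The 10 genes and the lists were chosen with earlier results of these data known. Named beside the 10 were CDK2, CDK4, CDK6, E2F1 and CDKN1A, up to 5 genes with the largest change past the threshold in each list and comparison, and the 3 most similar profiles among genes with a mean count of at least 50 in each line. Similarity was sought for genes that passed in a line.

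Alternatives were DESeq2 1.42.0, its size factors, total counts, dropping the filter, fitting the 16 libraries together, blocking on replicate number, other thresholds and leaving out each library. The counts of E2F targets were put through them after seeing the data. In UWB1.289, same-numbered libraries of both treatments deviated together (r from 0.133 to 0.247 over 9152 genes). DMSO replicate 1 with olaparib replicate 2 also gave 0.192, so numbers may pair the libraries there but this is not certain. The printed values come from the fit without the block, which was an alternative. In OVCAR3 r ran from 0.0580 to 0.184 and not all were above the limit of 0.1. Coordinates come from GENCODE release 44 on the same build, which held 64.9% of the symbols, and promoters from RefSeq.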

Additional observations from a re-analysis of the deposited data

Results flagged for a closer look

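Among 38 groups of 4 replicates tested for a library far from the rest, 4 were picked out, and chance alone picks out about 1 in 20. CCNA1 was low in replicate 1 of OVCAR3 with DMSO, at 0.71 log2 CPM against 1.13 to 1.21 in the others, and in replicate 4 of OVCAR3 with olaparib, at 3.29 against 3.99 to 4.13. RB1 was low in replicate 3 of OVCAR3 with DMSO, at 3.89 log2 CPM against 4.22 to 4.29, and in replicate 4 of OVCAR3 with olaparib, at 3.29 against 4.17 to 4.29. These log2 values carry a prior count of 2.

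The olaparib response differed between the lines by the interaction test, UWB1.289 minus OVCAR3, for CCND1 (-1.34), CCNE1 (-0.84) and CCNA1 (-1.95) on the log2 scale.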

How the results depend on the processing

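All genes of the 10 that rose or fell stayed below the adjusted p threshold of 0.1 in each alternative fit, and of 581 values recomputed for single genes 553 kept direction and side of the threshold. Adding the 2-fold and average count limits left 3 genes in place of 6 in OVCAR3, 1 in place of 5 in UWB1.289 and 3 in place of 7 between the lines. CCNA1 in UWB1.289 lost its 2-fold call without DMSO replicate 2 or 3. CDKN1B crossed the threshold of the interaction with DESeq2 (0.38), with total counts (0.40), with the replicate block (0.39) and without UWB1.289 DMSO replicate 2 or OVCAR3 DMSO replicate 1 or 2. The replicate block changed no other call. The 22 values that turned direction came from leaving out 1 library, belonged to genes that had not passed, and did not pass either. For olaparib in OVCAR3 these log2 values ran from -0.0827 to 0.0874 for CCNE2, -0.11 to 0.0767 for CDKN2A and -0.20 to 0.0815 for RB1. In UWB1.289 they ran from -0.0657 to 0.00915 for CDKN1B and -0.19 to 0.0174 for RB1. Between the lines they ran from -0.11 to 0.0519 for CCND3 and -0.15 to 0.0885 for CCNE2, and in the interaction from -0.16 to 0.0397 for CDKN2A and -0.16 to 0.13 for RB1. The number of E2F targets past the threshold ran from 10 to 14 rising in OVCAR3, 7 to 13 falling in UWB1.289 and 11 to 14 with a lower response in UWB1.289. Several single genes named beside the 10 no longer passed in some alternatives, among them CDK4 and E2F1 in UWB1.289 (7 and 5 of 14) and, in the interaction, C19orf12, CDK2 and CDKN1C (16, 9 and 8 of 21). CCNA1 in OVCAR3 with DMSO rests on 8 to 14 counts per library, which limits the precision of its fold change.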
